A study of Homo sapiens with 12 samples.

Results

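The comparison described here is the response of control cells to loss of a growth factor. TF-1 is a human erythroleukaemia line that needs the cytokine GM-CSF, and these cells carried the empty retroviral vector pMSCV-puro. The 6 arrays were chosen by their titles, 3 from cells sampled 12 hours after GM-CSF withdrawal and 3 from cells maintained in GM-CSF, out of 12 arrays in the series. The other 6 arrays hold the same 2 conditions in TF-1 cells that carried pMSCVpuro-GNB1K89E, a mutant G protein beta subunit. The cells were stably transduced, and the labels describe total RNA from biological triplicates without saying whether the line was 1 clone or a pool. The question was which genes change, and by how much, when cells without the mutant lose the cytokine.

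The GM-CSF receptor signals through the kinase JAK2, the transcription factor STAT5, the RAS and ERK cascade and PI3K. In cytokine-dependent blood cell lines these routes maintain growth, metabolism and survival, and their loss leads to arrest and then to cell death. Levels were read for 21996 Ensembl gene IDs. The files do not pair these IDs with gene symbols, and 0 of the IDs matched the reference table used here. The text therefore gives IDs without names, functions or sequences, and the TF-1 label was not checked against its marker genes.

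The measured level of many genes differed by a small amount between the withdrawn and the GM-CSF arrays. The counts by direction depended in part on how the arrays were scaled, as given below. Of all genes, 20.4% were called, meaning a limma p-value under 0.05 after Benjamini-Hochberg adjustment over all 21996 genes. Calls of higher levels made up 8.73% of all genes (1920 genes) and calls of lower levels 11.7% (2572 genes). The genes that rose had a median change of 1.19-fold and the genes that fell one of 1.16-fold. A change under 1.2-fold was measured for 53.2% of the genes that rose and for 66.6% of those that fell. Rises were larger than falls in the upper part of the range, with 90% of rises under 1.41-fold and 90% of falls under 1.32-fold. Changes from 1.5-fold to under 2-fold were called for 109 genes that rose and 57 that fell. Changes of at least 2-fold were called for 14 genes in each direction, which is 0.0636% of all genes each way, and 1 gene passed 3-fold.

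The gene with the largest rise was ENSG00000120738. Its intensity was 391.2, 391.2 and 380.2 in the 3 arrays with GM-CSF and 1604, 1577 and 1728 in the 3 withdrawn arrays. Every withdrawn array was far above every GM-CSF array. The log2 change was 2.08 (95% interval 1.99 to 2.16, limma adjusted p = 4.4e-13). This gene and the 3 below were chosen for a call, no overlap of the groups and the largest changes. Their separation, p-values and intervals are therefore descriptions, and the groups did not overlap for 35.7% of all genes.

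The gene with the next largest rise was ENSG00000129538. Its intensity was 1054, 945.8 and 1055 with GM-CSF and 2450, 2451 and 2761 after withdrawal, so the 2 groups did not overlap. The log2 change was 1.33 (SE 0.08, 95% interval 1.16 to 1.49, limma adjusted p = 6.5e-08), or 2.51-fold.

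ENSG00000167286 had the largest fall. Its intensity was 968.1, 1130 and 1126 with GM-CSF and 384.4, 426.1 and 373.7 after withdrawal. The withdrawn arrays were all below the GM-CSF arrays. The log2 change was -1.44 (95% interval -1.59 to -1.30, limma adjusted p = 1.4e-08), a 2.72-fold difference.

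ENSG00000165272 had the second largest fall, of nearly the same size. Its intensity was 1311, 1441 and 1421 with GM-CSF and 473.4, 542.4 and 527.6 after withdrawal. Again no withdrawn array reached the lowest GM-CSF array. The log2 change was -1.44 (SE 0.05, 95% interval -1.55 to -1.32, limma adjusted p = 2.3e-09), or 2.71-fold. The intervals of the 2 falls overlap almost entirely, so their order is not separated by these arrays.

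**Figure D1:**
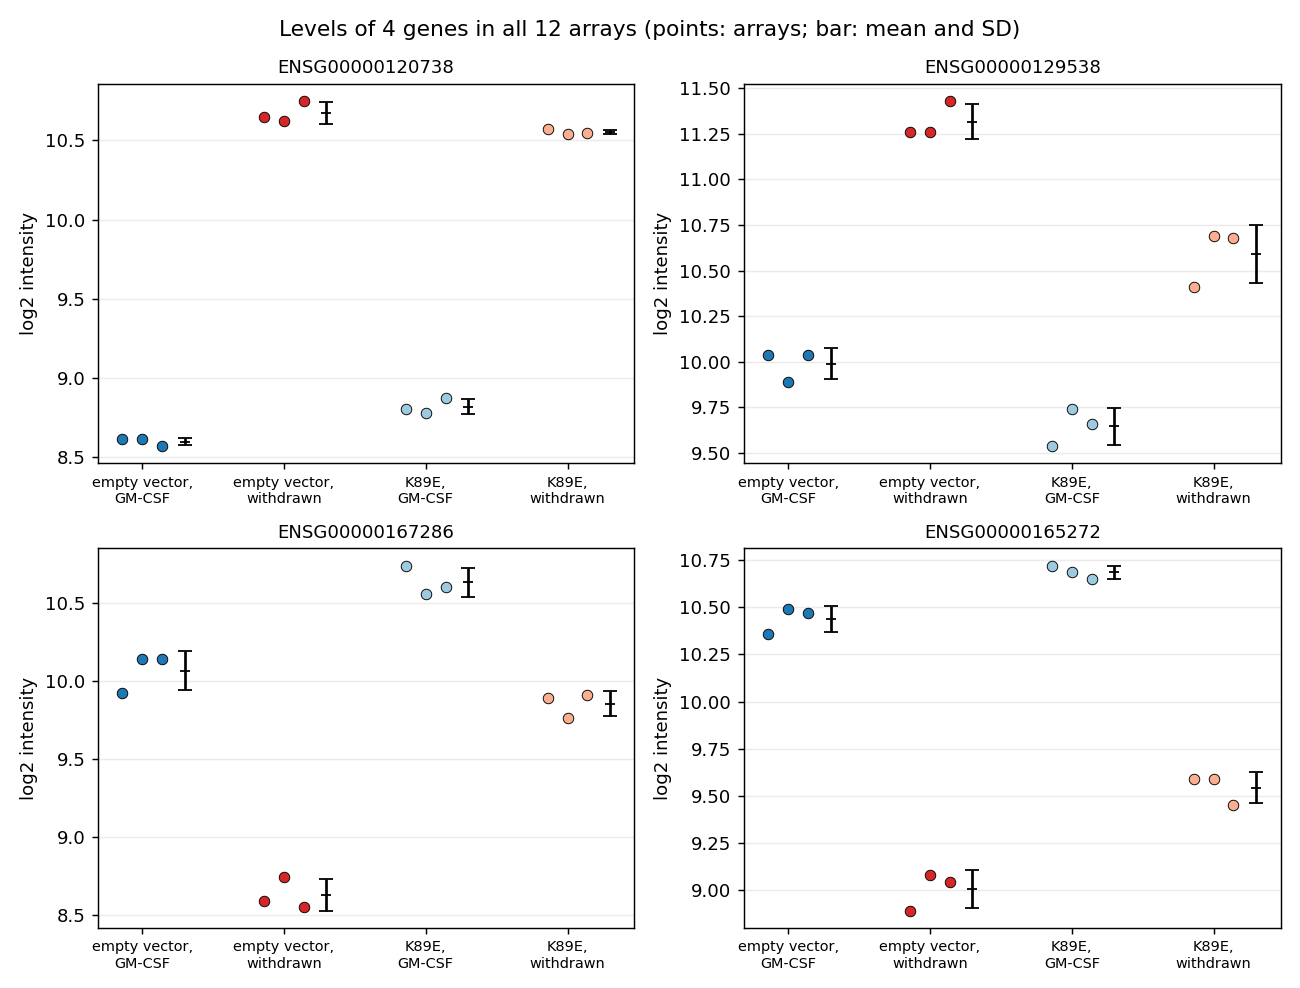
Log2 intensity of the 2 genes with the largest rises and the 2 with the largest falls in empty vector cells, in all 12 arrays. Points are arrays and the bar beside each group is its mean and SD (n = 3). In each panel the 3 withdrawn arrays of a line lie on one side of the 3 GM-CSF arrays of the same line. In empty vector cells this was the case for 35.7% of all genes, and in K89E cells the share was not counted.

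The direction of the calls differed with the brightness of the signal, which depends on the probes as well as on the RNA and does not rank genes by expression. Genes were divided into 4 bins of 5499 by their mean log2 level over the 12 arrays, with median intensities of 33.2, 102, 310 and 1140. In the dimmest bin 2.04% of the genes rose and 0.418% fell, and in the next bin 4.42% rose and 1.78% fell. In the third bin 12.1% rose and 14.6% fell, and in the brightest bin 16.4% rose and 30.0% fell. Rises thus made up 83.0% of the calls in the dimmest bin, then 71.3% and 45.3%, and 35.3% of the calls in the brightest bin. The median log2 change over all genes of a bin was 0.0351, 0.0371, -0.00363 and -0.0397 from dimmest to brightest. Precision also differed, with a median SE of the log2 change of 0.0807 in the dimmest and 0.0395 in the brightest bin.

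The balance of directions depended on how the arrays were scaled to each other. In the dimmest bin, 112 genes rose and 23 fell as the authors scaled the arrays, against 51 and 44 after quantile normalization and 60 and 46 after centring each array on its median. In the brightest bin 900 rose and 1647 fell, against 1128 and 1329 after quantile normalization and 641 and 2020 after centring. Rises outnumbered falls in both dimmer bins, and falls outnumbered rises in the brightest bin, under every setting in which they were counted. In the third bin, 665 genes rose and 804 fell, and this order reversed without withdrawn replicate 1, where 628 rose and 576 fell.

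**Figure D2:**
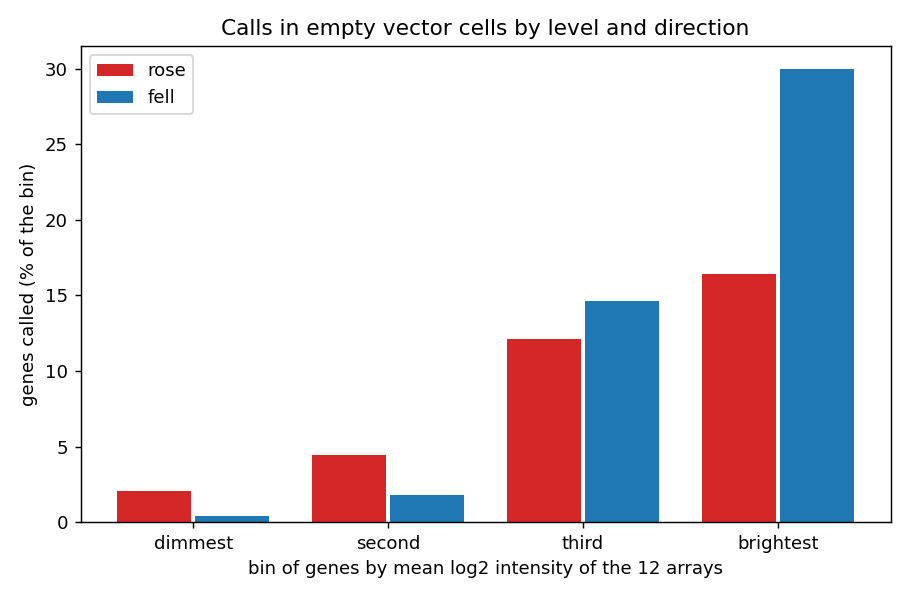
Share of genes called in empty vector cells in each of 4 bins of 5499 genes by mean log2 intensity (x axis), in percent of the bin (y axis), for rises and falls. Rises exceed falls in the 2 dimmer bins, and falls reach 30.0% of the brightest bin against 16.4% for rises.

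The array distributions differed between the 2 groups as well, least for withdrawn replicate 3. Array medians were 173.0, 172.6 and 174.1 with GM-CSF and 179.9, 178.0 and 174.3 after withdrawal, so all 3 withdrawn medians were higher. Array means went the other way, from 525.7, 527.7 and 528.8 to 517.5, 522.4 and 524.5. A 2-sided exact permutation test gave p = 0.1 for each measure, which is the smallest that 3 arrays against 3 allow. Withdrawn replicate 1 had the highest median and the lowest mean of the 6 arrays. The part of these shifts in the calls by level was not tested beyond the scaling and single-array settings given above.

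Withdrawn arrays also varied more among themselves. The median SD of log2 levels over all genes was 0.0745 in withdrawn and 0.051 in GM-CSF arrays (n = 3 each). Correlations between withdrawn arrays were 0.9961 to 0.9973 and those between GM-CSF arrays 0.9984 to 0.9986, across genes, which are not independent replicates. No 2 arrays of a group held identical values. The labels call the triplicates biological without naming separate cultures, so the p-values measure the spread between these samples, which may be technical in part.

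**Figure D3:**
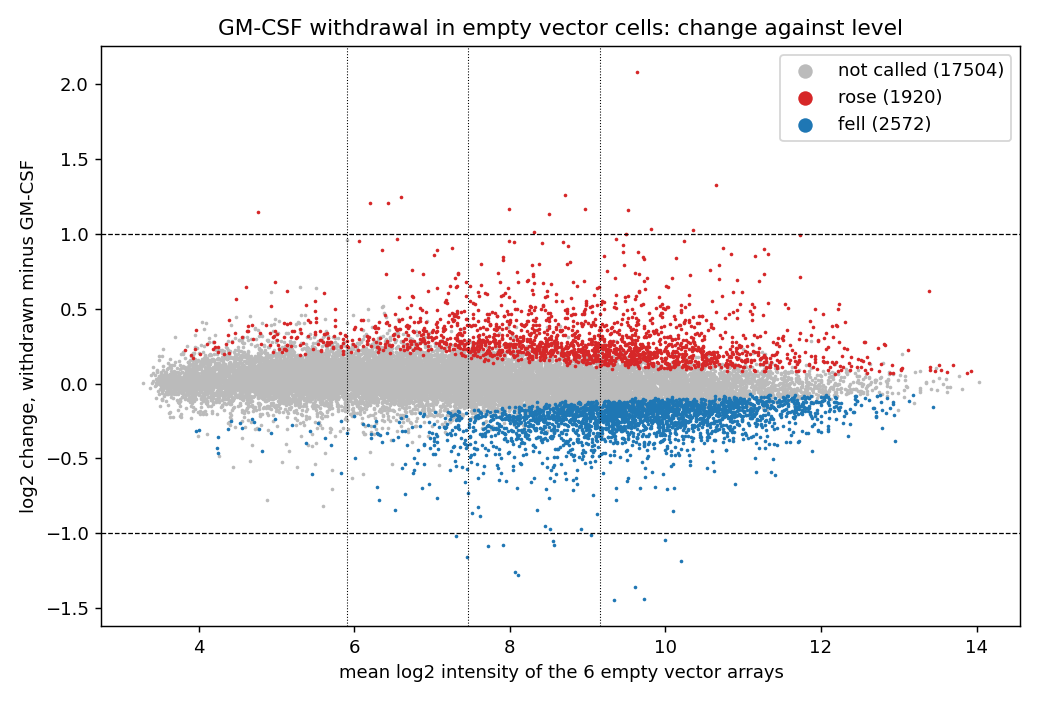
Log2 change on withdrawal (y axis) against the mean log2 intensity of the 6 empty vector arrays (x axis), with 1 point per gene. Dashed lines mark a 2-fold change and dotted lines the borders of the 4 level bins (means of 12 arrays); the 1920 genes that rose and the 2572 that fell lie mostly inside the 2-fold lines.

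The arrays also bounded the change in measured signal of most genes that were not called. Of these 17504 genes, 98.5% had a 95% interval of the change that lay within 1.5-fold in both directions, and 68.8% had one within 1.2-fold. These intervals are per gene and not adjusted for the number of genes, and they bound the signal rather than the RNA level. The share within 1.5-fold was 97.3% in the dimmest and 99.9% in the brightest bin, so at dim levels more genes could have changed by that much without a call. A change of at least 1.5-fold was measured for 203 genes, and 9 of them were not called. No gene with a measured change of at least 2-fold was left uncalled.

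The genes with changes of at least 2-fold spanned a wide range of signal. The 14 that rose had intensities with GM-CSF from 18.3 to 1017, with a median of 257, and 4 of them were in the 2 dimmer bins. The 14 that fell started at 225 to 1777, with a median of 546, and 0 of them were in the 2 dimmer bins. The starting levels of both sets overlap. For all 28 genes the withdrawn and GM-CSF arrays did not overlap, which was the case for 35.7% of all genes. Since the 28 were chosen by size in these arrays, this count is a description.

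The same genes were then read in the 6 K89E arrays, whose levels did not enter the size of change that chose them. Their spread did enter the variance behind the calls, and the call removed 0 genes with a change of at least 2-fold and 9 of 203 with one of at least 1.5-fold. All 14 genes that rose at least 2-fold also changed upwards there, and 13 of them were called as rises, where 7.29% of all genes were. Their log2 changes ran from 1.01 to 2.08 with a median of 1.16 in empty vector cells, and from 0.48 to 1.74 with a median of 0.92 in K89E cells. All 14 genes that fell at least 2-fold were called as falls in K89E cells, where 10.6% of all genes were. Their log2 changes ran from -1.44 to -1.01 with a median of -1.12 in empty vector cells, and from -1.49 to -0.42 with a median of -0.85 in K89E cells. Over all genes the median log2 change was 0.0133 in empty vector cells, against 0.0166 with K89E. Because the 28 genes were chosen for large changes in the empty vector arrays alone, their smaller medians with K89E do not test for a weaker response.

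Among genes changed at least 1.5-fold, 114 of 123 that rose were called as rises in K89E cells and 62 of 71 that fell were called as falls, with 0 called in the opposite direction. The sign of the change was opposite in 1 of the 123 and 4 of the 71. The difference between both lines' responses was tested directly as an interaction, which was called for 0.0682% of all genes. It was called for 1 of the 123 genes and 7 of the 71. These genes were chosen by the size of the empty vector change, which is part of the difference, so the counts are a description. Over all genes the interaction was called 15 times, and for 0 genes without replicate 1 or 3 of withdrawn K89E cells or without replicate 2 or 3 of empty vector cells with GM-CSF. By limma, 1234 genes had an unadjusted p under 0.05 for it with all arrays and 956 to 1484 in these 4 fits, where 1100 arise with no difference.

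**Figure D4:**
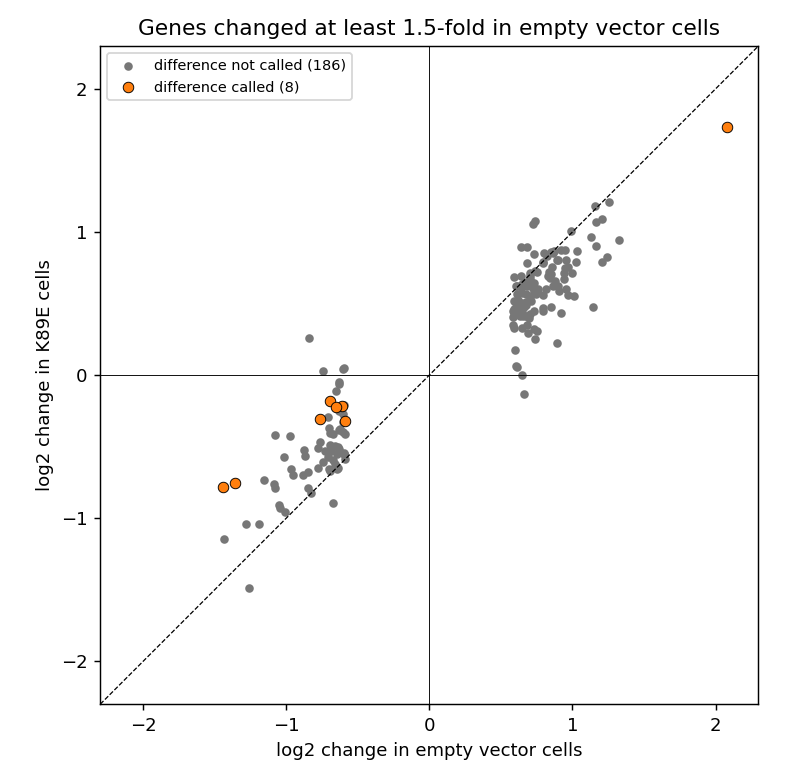
Log2 change on withdrawal in K89E cells (y axis) against that in empty vector cells (x axis) for the 194 genes called and changed at least 1.5-fold in empty vector cells, with 1 point per gene and a dashed line of equal changes. The 8 genes with a called difference between the lines are drawn larger.

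For the genes given by ID, the K89E levels separated in the same direction. ENSG00000129538 read 744.7, 853.8 and 811.3 in K89E cells with GM-CSF and 1358, 1655 and 1641 after withdrawal. The withdrawn K89E arrays were above the K89E arrays with GM-CSF and below all 3 withdrawn empty vector arrays. With GM-CSF, the K89E arrays were also below all 3 empty vector arrays. The share of all genes without overlap between the lines was not counted, and the difference in level between the lines was not tested. Here and for the other genes given by ID, the order of the lines is therefore a description and does not set these genes apart. Its log2 change in K89E cells was 0.95 (limma adjusted p = 2.2e-06), and the difference from empty vector cells, K89E minus empty vector, was -0.38 (SE 0.11, limma adjusted p = 0.49), which was not called.

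ENSG00000165272 read 1690, 1656 and 1610 in K89E cells with GM-CSF and 772.7, 772.2 and 700.4 after withdrawal. Both K89E groups were above the empty vector group of the same condition in every array, again without a count over all genes. Its log2 change in K89E cells was -1.14 (limma adjusted p = 2.9e-08), and the difference of 0.29 (SE 0.08, limma adjusted p = 0.43) was not called.

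ENSG00000167286 read 1713, 1514 and 1557 in K89E cells with GM-CSF and 951.6, 867.8 and 962.8 after withdrawal. Both K89E groups were above the empty vector group of the same condition in every array, again without a count over all genes. The log2 change of this gene in K89E cells was -0.78 (limma adjusted p = 4.3e-06). The difference of responses was 0.66 (SE 0.10, limma adjusted p = 0.027). ENSG00000120738 read 444.9, 439.7 and 468.6 in K89E cells with GM-CSF and 1523, 1491 and 1495 after withdrawal. Its K89E levels lay between both empty vector groups in every array, and the difference of responses was -0.34 (SE 0.06, limma adjusted p = 0.045). With 1 array left out, the adjusted p was 0.0155 to 0.13 for ENSG00000167286 and 0.0631 to 0.161 for ENSG00000120738, so the call of the latter was lost in each such fit.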

How the data were processed

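The authors deposited normalized intensities, not log values, with 1 value per Ensembl gene ID and array. The submitters' processing notes name RMA. Its version, the type of array, the definition of its probe sets and the genome build are not stated in those notes or the labels. The suffix of each ID was dropped, and 0 columns were without a sample. The log2 of each intensity was taken with no pseudocount. limma 3.58.1 in R 4.3.3 was run on the 12 arrays together, with a mean for each of the 4 groups and a prior variance that follows level. Tests were 2-sided. The number of arrays limits the precision, and no batch is given in the sources used here.

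A gene was given by ID if called, without overlap of the 2 groups, and among the 2 with the largest change in its direction. The planned rule needed symbols. The 38 gene lists matched 0 IDs and were not analysed here under any setting, since 0 of the 59792 rows of the reference table (GRCh38.p14) give an Ensembl ID. The comparison, lists and rules were chosen with earlier results of these data known.

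On data simulated for this comparison over 21996 genes, the test recovered 38.8% of 67 genes changed 1.2-fold, 94.0% of 67 changed 1.5-fold and 98.5% of 66 changed 2-fold, and it called 5 unchanged genes. The simulated noise was normal, with the same spread for a gene in all groups and no shift between arrays. Few genes were changed, against 4492 called in the real arrays, so these rates need not hold there.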

Additional observations from a re-analysis of the deposited data

Results flagged for a closer look

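The withdrawal response differed between empty vector and K89E cells, by the test of the difference itself, for 15 genes, a count that was 8 with the replicate block, 5 with a prior variance without a trend and 0 to 13 with 1 array left out. Among the genes given by ID these were ENSG00000167286 (K89E minus empty vector, log2 difference 0.66) and ENSG00000120738 (log2 difference -0.34). With 1 array left out, the limma adjusted p of the first was 0.0155 to 0.13 and that of the second 0.0631 to 0.161.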

How the results depend on the processing

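A required change of 2-fold, which drops the small changes by construction, kept 28 genes, 14 higher and 14 lower. Otherwise the count of calls, in total and by direction, stayed within 1.5 times: with 1 of the 6 arrays left out, 3303 to 4205 genes were called, 1364 to 1791 higher and 1939 to 2452 lower. On all arrays totals ran from 3890 (prior variance without a trend) to 5689 (array weights). Centring on array medians gave 1378 higher and 3211 lower, and quantile normalization 2028 and 2294; the median change of all genes was -0.0209 and -0.00378 in these fits. Counts of at least 1.5-fold or 2-fold changes stayed within 1.5 times in all 60 recomputations, and the 4 IDs kept direction and call in empty vector cells in all 60.

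Of 116 recomputed counts by level bin, 15 moved by over 1.5 times, all in the 2 dimmer bins. In the dimmest bin array weights gave 324 higher and 70 lower, and without GM-CSF replicate 2 there were 56 higher and 12 lower. There were 73 higher without withdrawn replicate 2, and 59 without GM-CSF replicate 1 or 3. In the next bin array weights gave 446 higher and 151 lower, and without GM-CSF replicate 2 there were 157 and 62. The cause was not tested.

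Deviations of same-numbered arrays of the 2 empty vector groups correlated at 0.0514 to 0.092, and the main fit did not pair them. Differently numbered arrays were not compared, so these values do not decide whether the arrays were paired. With the replicate block 4406 genes were called, of which 4245 were among the 4492. The interaction was called for 8 genes with the block, for 5 with a prior variance without a trend and for 0 to 13 with 1 array left out. Leaving out replicate 1 or 3 of withdrawn K89E cells, or replicate 2 or 3 of empty vector cells with GM-CSF, gave 0 limma calls, with 956 to 1484 genes at an unadjusted p under 0.05, where 1100 arise with no difference. The called difference of ENSG00000120738 was lost in 14 of 14 alternatives and that of ENSG00000167286 in 10 of 14.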
